A study of Mus musculus with 59 samples.

Results

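The experiment described here asked whether voluntary running alters, in the adult mouse brain, the gene expression that follows exposure to valproic acid in the womb. Valproic acid (VPA) is an anti-epileptic and mood-stabilising drug that also inhibits histone deacetylases. The experiment comprised all 24 arrays of adult hippocampus and cortex, out of 59 arrays in the series. Every array of these 2 tissues labelled as taken at 12 to 13 weeks was used. Pregnant C57BL/6 dams were dosed by mouth at the embryonic stages E12.5, E13.5 and E14.5, and the samples came from their male offspring, which had no behavioral test. Offspring of dams given the vehicle 0.5% methylcellulose formed the MC group, and offspring of dams given 300 mg/kg VPA formed the VPA group. The MC+RW and VPA+RW groups had the same prenatal dosing and a running wheel in the cage from weaning on. Each of the 4 groups had 3 arrays of hippocampus and 3 of cortex. The distance run is not in the labels, and neither are the litters, so p-values measure the spread between these samples, which may include mice of 1 litter. Nor do the labels say whether hippocampus and cortex arrays of 1 number came from 1 mouse. The fits over both tissues count all 24 arrays as separate samples. If they did come from 1 mouse, those p-values could be too small for genes that vary together between the tissues. A further set of hippocampus arrays at postnatal day 84 (P84), 4 from MC and 4 from VPA offspring without a wheel, was used as arrays outside the design.

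The quantity of interest was the interaction, which is the running difference in VPA offspring (VPA+RW minus VPA) less the running difference in MC offspring (MC+RW minus MC). It equals the VPA difference among runners less that among sedentary mice. A gene that VPA raised in sedentary mice and that no longer differs in runners has a negative interaction. Such a value can arise from a fall in the VPA arm, from a rise in the MC arm, or from both. For many of the genes both arms are therefore given below. As background, running is known to raise activity-dependent and neurotrophic genes in the hippocampus. Running also engages the glucocorticoid hormone axis, and the hormone's receptor acts on genes by binding short DNA elements. Sgk1, Tsc22d3, Nfkbia and Klf9 are textbook examples of genes that respond to it.

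Signals are intensities after each array was multiplied to bring its trimmed mean to 500, and differences are on the log2 scale after a floor of 32. The 24 arrays had deposited trimmed means between 285 and 398, and arrays of 1 group correlated at 0.97 to 0.987. The percent of probe sets under the floor was 18.2 to 20.1 in MC, 20.7 to 23.6 in MC+RW, 18.8 to 22.1 in VPA and 19.7 to 21.8 in VPA+RW, over both tissues. The tissue labels matched their markers: Prox1, which marks dentate granule neurons, was 427 to 629 in hippocampus and 56.2 to 103 in cortex, and Cux2, an upper layer gene, was 216 to 571 in hippocampus and 1232 to 1468 in cortex. Striatal Drd2 was 804 to 1123 in the cortex arrays against 92.7 to 203 in hippocampus. Ttr, the main transcript of choroid plexus, reached 9946 in cortex VPA replicate 1 and lay between 128 and 2500.3 in the other arrays. Without that array 0 genes passed for the interaction and 23 for VPA minus MC (limma), 5 in place of 35 for VPA+RW minus VPA, and 17 in place of 12 met the rule for genes undone by running that is given below. Such falls were not particular to that array. Without hippocampus VPA+RW replicate 1 in its place, 0 genes passed for the interaction and 4 for VPA+RW minus VPA (limma).

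Over both tissues, 1 of 14049 genes passed for the interaction (limma, Benjamini-Hochberg adjusted p under 0.05), a background of 0.00712%. That gene was Ggt7, a member of the gamma-glutamyltransferase family, with an interaction of -2.46 (95% interval -3.31 to -1.61) and an adjusted p of 0.0475. Its call was lost under 7 of 12 alternatives and without 20 of the 24 arrays, at adjusted p-values up to 0.389. An unadjusted p under 0.05 was found in 1245 genes, or 8.86%. In hippocampus alone 0 genes passed (limma, background 0%, 696 at an unadjusted p under 0.05). In cortex alone 1 passed (0.00712%). That was Gsk3b, which encodes a serine/threonine kinase of the Wnt and insulin pathways, with a cortex interaction of -0.52 (adjusted p 0.0128). The interaction differed between hippocampus and cortex in 0 genes (limma, background 0%, 419 at an unadjusted p under 0.05).

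The comparisons that make up the interaction held more calls. VPA and MC differed without a wheel in 21 genes over both tissues (0.149% of those tested), 16 higher and 5 lower in VPA. With a wheel, VPA+RW and MC+RW differed in 1 gene (0.00712%), Dhrs7, which encodes a short-chain dehydrogenase. MC+RW differed from MC in 202 genes (1.44%), 149 higher and 53 lower, or 39 higher and 27 lower with quantile normalization and 0 and 6 with the values as deposited. With averaged probe sets the split turned, to 85 higher and 105 lower, and with no intensity trend it was 55 and 52. VPA+RW differed from VPA in 35 (0.249%), 12 higher and 23 lower, or 0 and 4 with the values as deposited. The count of 21 for VPA minus MC was 1 with the values as deposited, 0 when hippocampus and cortex of a treatment and number were averaged to 1 value, and 48 with no filter on dim genes. Without single arrays it ran from 8, without cortex VPA replicate 3, to 45, without hippocampus MC replicate 3. The count for MC+RW minus MC ran from 54, without cortex MC+RW replicate 1, to 295, without hippocampus MC+RW replicate 1. That for VPA+RW minus VPA ran from 4, without hippocampus VPA+RW replicate 1, to 51, without hippocampus VPA+RW replicate 3.

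For the 21 genes called between VPA and MC, the median size of the difference was 0.37 in sedentary mice. Among runners the median, taken in the direction of the sedentary difference, was 0.05, and 19 of the 21 genes had a runner difference at most 0.5 times the sedentary one. The runner difference had an unadjusted p under 0.05 in 2 of the 21. The runner arrays entered the fit that called the 21 genes, through its spread and filter, and without hippocampus VPA+RW replicate 1 it called 16. Of all 14049 genes tested, 4992 met the same limit of 0.5, but these were not chosen for their sedentary difference. Genes chosen for a large sedentary difference are likely to have a smaller one in other arrays by that choice alone. The smaller runner differences are therefore a description and not a test of running. The interaction had the sign opposite to the sedentary difference in 21 of 21 genes and in 77.8% of all genes tested. Both quantities use the same sedentary arrays with opposite sign, so such opposition is built into them.

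**Figure D1:**
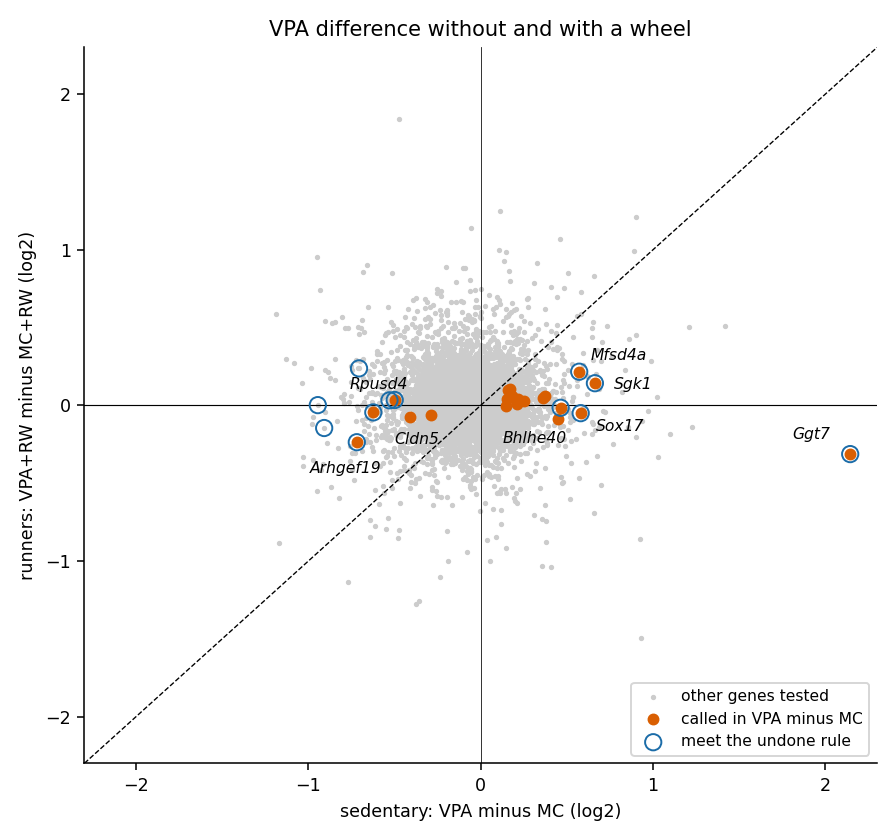
Each point is a gene, placed by its VPA minus MC difference in sedentary mice (horizontal axis, log2) and in runners (vertical axis, log2), both over hippocampus and cortex. The dashed line marks equal differences; the 21 genes called in sedentary mice (filled) lie near the horizontal zero line, with runner differences from -0.31 to 0.22, and the open circles are the 12 genes of the undone rule.

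A gene was taken as undone by running when it met 4 conditions in each tissue. VPA and MC differed by at least 1.3-fold in the same direction, their arrays did not overlap, the runner difference was at most 0.5 times the sedentary one, and VPA+RW lay from VPA on the side away from the sedentary difference. The rule uses the same values as the comparisons, so its members are described and not tested by them. It gave 12 genes (0.0854% of those tested). Ggt7, Sgk1, Bhlhe40, Sox17 and Mfsd4a were higher in VPA, and Rpusd4, Arhgef19, Btbd17, Npvf, Oprd1, 1700027J07Rik and 4933406B17Rik were lower. Of the 12, 8 were also called between VPA and MC. The rule asks only for the direction of the running difference in VPA offspring. Among the 12, that difference was called in Ggt7 and Sgk1 and in no other. In Sox17 the running difference was called in MC offspring instead. Bhlhe40 lay just inside the fold limit (1.31-fold in the weaker tissue) and Rpia just outside (1.29-fold). Arhgef19 lay just inside the limit of 0.5 (ratio 0.462) and Top3a just outside (0.552). Without the requirement on overlap 45 genes met the rule, with a limit of 1.2-fold 24, with 1.5-fold 5, and with quantile normalization 7. Without single arrays the count ran from 9 to 28, the highest without cortex MC replicate 1. Ggt7, Sgk1 and 4933406B17Rik met it without any 1 of the 24 arrays.

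**Figure D2:**
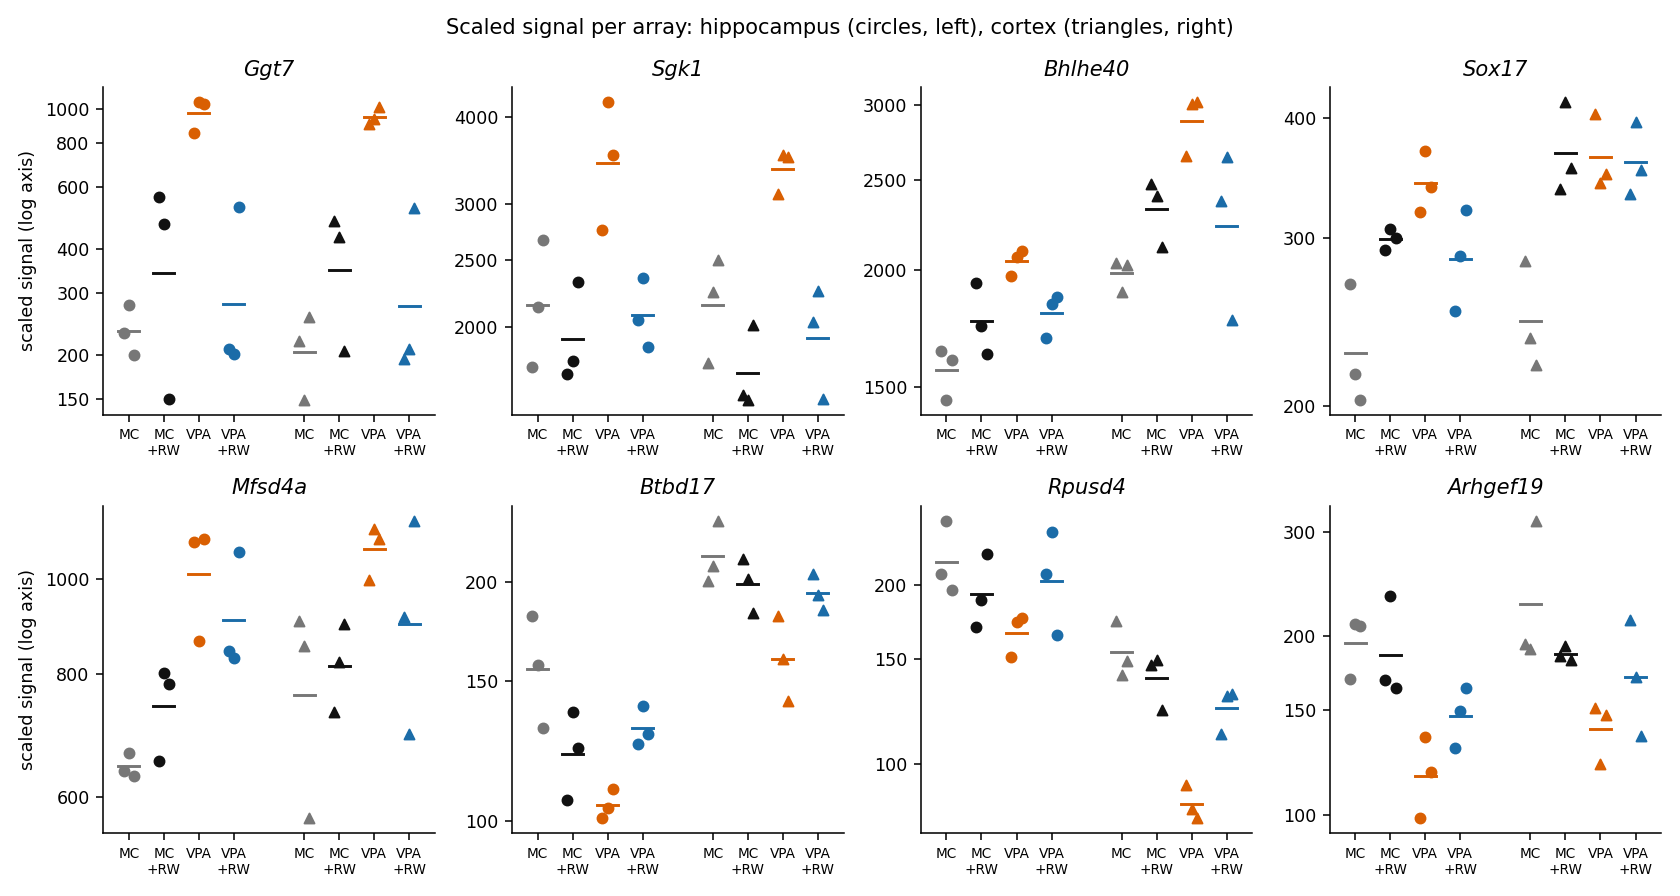
Scaled signal of 8 undone genes in each of the 24 arrays on a log axis, by treatment, with circles for hippocampus, triangles for cortex and bars for the mean of the log2 values (n = 3 per group). In Ggt7 and Sgk1 the sedentary VPA arrays lie above all others of both tissues, while in Sox17 the MC arrays of the cortex lie below all other cortex arrays.

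Sgk1 encodes a serine/threonine kinase that regulates ion channels and is induced by glucocorticoids. The 250 bases before 1 of its 6 RefSeq start sites (GRCm38.p6, chr10:21993640-21993889, plus strand) hold a full palindromic glucocorticoid response element, which is AGAACA, any 3 bases and TGTTCT. The window is shown because Sgk1 was the 1 undone gene with this element, which is in capitals. It begins 189 bases upstream of the start.
Sgk1: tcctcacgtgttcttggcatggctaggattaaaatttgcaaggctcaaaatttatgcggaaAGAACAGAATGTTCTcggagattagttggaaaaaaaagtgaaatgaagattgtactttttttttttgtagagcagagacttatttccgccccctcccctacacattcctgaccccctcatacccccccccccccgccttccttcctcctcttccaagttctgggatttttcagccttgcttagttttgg
On either strand the element was found in 3 of 32851 windows of this length (0.00913%). Of the 12 undone genes, 9 have a window in the table, and Sgk1 was the 1 with the full element. Among the glucocorticoid receptors and responsive genes listed below, 13 have a window, and again Sgk1 was the 1 with the full element. The single arm AGAACA, which is part of the full element, was in 16.1% of all windows and in those of Sgk1 and 4933406B17Rik among the undone genes. A match describes letters in a window and shows no binding.

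Sgk1 was high in sedentary VPA offspring and lower in the other groups. In hippocampus the MC arrays read 1752, 2141 and 2663, the MC+RW arrays 1718, 1788 and 2321, the VPA arrays 2753, 4198 and 3525 and the VPA+RW arrays 2052, 2353 and 1876. In cortex they read 1777, 2246 and 2493 in MC, 1602, 1575 and 2013 in MC+RW, 3107, 3526 and 3499.6 in VPA and 2034, 2251 and 1578 in VPA+RW. Each of the 6 sedentary VPA arrays was above all 18 others. VPA exceeded MC by 0.66 (95% interval 0.43 to 0.90, limma adjusted p 0.0102). With a wheel Sgk1 fell in VPA offspring by 0.76 (adjusted p 0.00484), while the running difference in MC offspring was -0.24 (adjusted p 0.275). Among runners VPA minus MC was 0.14 (-0.09 to 0.38). The interaction of -0.52 (95% interval -0.85 to -0.19) did not pass (adjusted p 0.407). Its size was alike in hippocampus (-0.56) and cortex (-0.48). Both called differences held without any 1 array and were lost when the tissues were averaged, and the difference from MC was lost with the values as deposited.

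The other glucocorticoid-responsive genes were read from a list of 15, all tested, that holds the 2 receptors and 13 genes known to respond. Between VPA and MC without a wheel, 3 of 15 rose (background 0.149%), namely Klf9, Sgk1 and Tsc22d3, and 0 fell. Among runners 0 of 15 differed (background 0.00712%, 1 of 15 at an unadjusted p under 0.05, limma). The median VPA minus MC was 0.17 without a wheel and 0.01 with one, against -0.01 and 0.00 over all genes tested. For the interaction 0 passed and 4 had an unadjusted p under 0.05 (limma, 8.86% of all genes). Below 0 lay 12 of 15, against 46.3% of all genes, and the median was -0.16 against 0.01. In each of the tissues, the interaction was opposite in sign to VPA minus MC in 8 of 15 members, or 53.3%, against 55.9% of all genes. By that measure the list did not stand out. When the interaction also had to have 1 direction in both tissues, 8 of 15 members met it, against 5125 of all 14049 genes. No test was made of either count. The 12 members below 0 became 10 when the probe sets of a gene were averaged and 12 or 13 without single arrays. Running in VPA offspring lowered Sgk1 and Nfkbia and raised the cell cycle inhibitor gene Cdkn1a (background 0.249%). The Cdkn1a call was lost without any 1 of 8 arrays and under 5 of 12 alternatives, and the others were lost when the tissues were averaged. In MC offspring it raised Klf9, the receptor cochaperone gene Fkbp5 and Zbtb16 (background 1.44%), and the Fkbp5 call was lost without 9 of the 24 arrays.

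Tsc22d3 encodes GILZ, a mediator of glucocorticoid action. In hippocampus it read 1455, 1663 and 1786 in MC, 1848, 1590.5 and 1849 in MC+RW, 2067, 2210.2 and 2129 in VPA and 1719, 1946 and 1638 in VPA+RW. The cortex arrays read 1694, 1934 and 1931, 2045, 1812 and 2029, 2241, 2443 and 2313 and 2102, 2263 and 1924 in the same order. The VPA arrays lay above the MC arrays in both tissues, and in hippocampus above those of both running groups. VPA exceeded MC by 0.36 (limma adjusted p 0.00457), the runner difference was 0.05, and the interaction was -0.31 (adjusted p 0.349). The interaction was 0.070 when the probe sets of the gene were averaged, and the called rise was lost. Of its 3 dimmer probe sets, 2 had an interaction above 0.

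Nfkbia encodes the NF-kappaB inhibitor, which glucocorticoids induce. Its hippocampus values were 3967, 4610.0 and 4049 in VPA and 3249, 3347 and 3013 in VPA+RW, against 3186, 3658 and 3913 in MC and 3358, 3381 and 3538 in MC+RW. In cortex they were 4089.8, 4678 and 4429 in VPA and 3641, 3252 and 3210.1 in VPA+RW, against 3353, 3179 and 4084 in MC and 3373, 3189.6 and 3462 in MC+RW. In both tissues the 3 VPA arrays were above all others. The fall from VPA to VPA+RW was called (-0.39, limma adjusted p 0.00484), the sedentary difference was 0.28 at an adjusted p of 0.0505, and the interaction was -0.32 (adjusted p 0.336). Mt1 and Mt2, the metallothionein genes, had sedentary differences of 0.26 and 0.36 that did not pass. The receptor genes Nr3c1 and Nr3c2 had interactions of 0.03 and -0.15, neither of which passed.

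**Figure D3:**
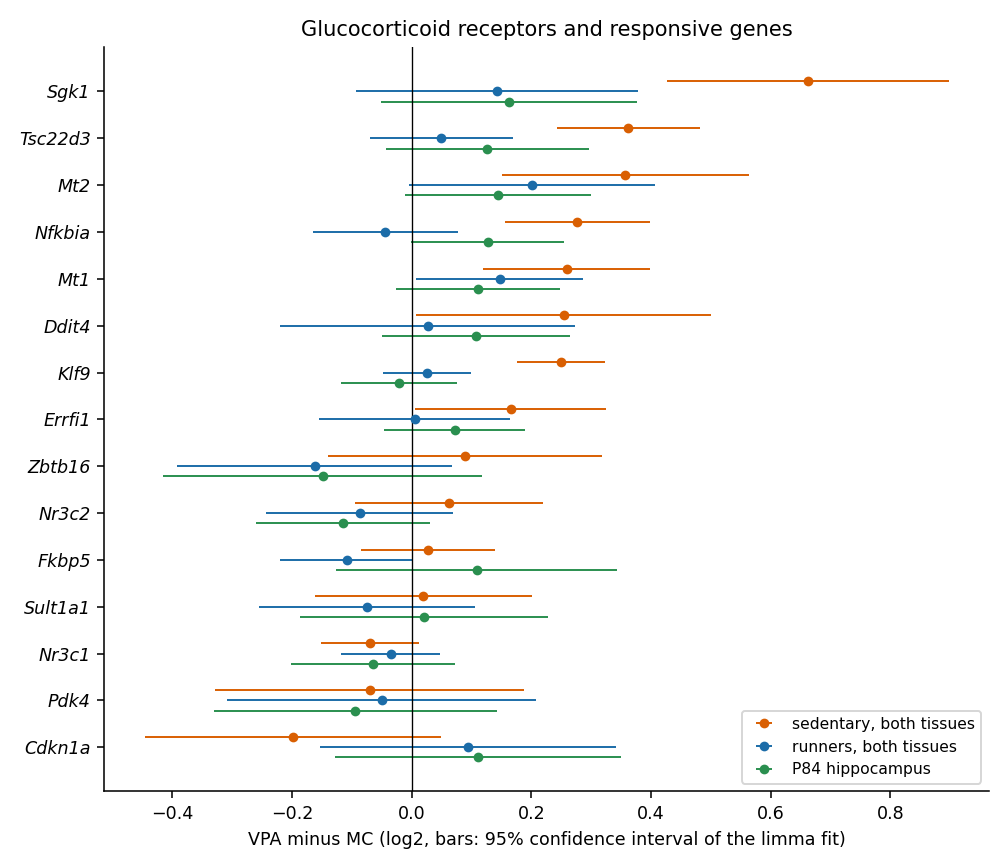
VPA minus MC difference (log2) of the 15 listed glucocorticoid receptors and responsive genes in sedentary mice and in runners, both over hippocampus and cortex, and in P84 hippocampus, with 95% intervals of the limma fit. For Sgk1 the difference was 0.66 in sedentary mice, 0.14 in runners and 0.16 at P84.

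In Sgk1 the running difference passed in the VPA arm, and in Sox17 and Klf9 it passed in the MC arm. The difference between the arms is the interaction, which passed for none of these genes. Sox17 encodes a transcription factor of endothelial cells. Its MC arrays read 268, 216 and 203 in hippocampus and 284, 235 and 221 in cortex. The other hippocampus groups read 291, 306 and 300.1 in MC+RW, 319.5, 369.8 and 339 in VPA and 252, 287 and 321 in VPA+RW. The cortex groups read 337, 416 and 355 in MC+RW, 404, 342 and 349.7 in VPA and 333, 396 and 354 in VPA+RW. In cortex every array of the 3 other groups was above every MC array, and in hippocampus only VPA+RW overlapped MC. Sox17 thus rose both with VPA (0.58, limma adjusted p 0.00361) and with running in MC offspring (0.49, adjusted p 0.00662). In VPA offspring the running difference was -0.14 and did not pass (adjusted p 0.675). The interaction of -0.63 (95% interval -0.89 to -0.37) did not pass either (adjusted p 0.198). A second, dimmer probe set of Sox17 gave 0.21 for VPA minus MC and -0.23 for the interaction.

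Klf9 encodes a Krueppel-like factor that responds to glucocorticoids and thyroid hormone. It read 7076, 7722 and 7696 in hippocampus MC, 8595, 7949 and 7762 in MC+RW, 8979.6, 8838 and 8556 in VPA and 8179, 8558 and 8314 in VPA+RW. In cortex it read 7863, 7666 and 8711 in MC, 9858, 9521 and 9492 in MC+RW, 9635, 9655 and 9837 in VPA and 9553, 9653 and 9771 in VPA+RW. The MC arrays were the lowest of each tissue, and the 3 other cortex groups overlapped one another. Klf9 rose with VPA by 0.25 (limma adjusted p 0.00204) and with running in MC offspring by 0.18 (adjusted p 0.0111), and its interaction was -0.22 (adjusted p 0.261). Both rises were lost when probe sets were averaged, with the values as deposited and when the tissues were averaged, and the running rise also under quantile normalization. Of the 3 list members that rose with VPA, Sgk1 was the 1 still called with averaged probe sets. Sgk1 has no other probe set, so averaging could not change its values.

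Bhlhe40 encodes a repressor of the circadian clock. In hippocampus it read 1639, 1455 and 1605 in MC, 1940.3, 1742 and 1626 in MC+RW, 1972, 2066 and 2098 in VPA and 1692, 1843 and 1872 in VPA+RW. In cortex it read 2038, 1894 and 2028 in MC, 2475, 2399 and 2115 in MC+RW, 2647, 3007 and 3024 in VPA and 2370.5, 2640.1 and 1771 in VPA+RW. The VPA arrays were the highest of each tissue, and most arrays of the running groups lay between MC and VPA. The exceptions were hippocampus MC+RW replicate 3, within the range of MC, and cortex VPA+RW replicate 3, below all MC arrays. VPA exceeded MC by 0.46 (limma adjusted p 0.00361). The running differences of 0.20 in MC and -0.28 in VPA offspring did not pass, and nor did the interaction of -0.48 (95% interval -0.69 to -0.27) (adjusted p 0.198).

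Mfsd4a encodes a major facilitator superfamily transporter. Its VPA arrays read 1091, 865 and 1097 in hippocampus and 996, 1122 and 1099 in cortex, against 638, 665 and 631 and 905, 854 and 570.5 in MC. The MC+RW arrays read 653, 801 and 782 in hippocampus and 731, 823 and 899 in cortex, and the VPA+RW arrays 845, 829.7 and 1066 and 914, 695 and 1145. VPA+RW replicate 3 lay within the range of the VPA arrays or above it in both tissues. The VPA difference of 0.57 (limma adjusted p 0.0279) was lost without any 1 of 6 sedentary arrays (hippocampus MC 2, VPA 1 and VPA 3, cortex MC 3, VPA 2 and VPA 3), and of its 2 other tested probe sets 1 went the opposite way.

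Among the other genes that rose with VPA, Slc2a1, the glucose transporter of brain endothelium, and Sap30, a subunit of the Sin3 histone deacetylase complex, had the larger interactions. Slc2a1 rose by 0.37 without a wheel (limma adjusted p 0.0107) and differed by 0.06 with one. Sap30 rose by 0.45 (adjusted p 0.0246) and differed by -0.09 with a wheel. Their interactions of -0.31 and -0.53 did not pass, and the rise of Sap30 was lost without any 1 of 5 cortex arrays. The remaining 7 risers were Sun1, Hnrnpa0, C1qbp, Hmgcs1, Thy1, Zfand5 and Tspan3, with rises of 0.15 to 0.21, and all 7 calls were lost under quantile normalization. Hmgcs1, of cholesterol synthesis, and Thy1, a neuronal surface glycoprotein, were the 2 of these whose runner difference was more than 0.5 times the sedentary one, 0.11 against 0.17 and 0.10 against 0.16. The VPA arm had the larger running difference in 14 of the 21 called genes, and the MC arm in 7, against 5827 of all 14049 genes with the larger one in the VPA arm. The sedentary arrays that called the 21 genes are also the baseline of both arms, so the choice of genes bears on this split.

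**Figure D4:**
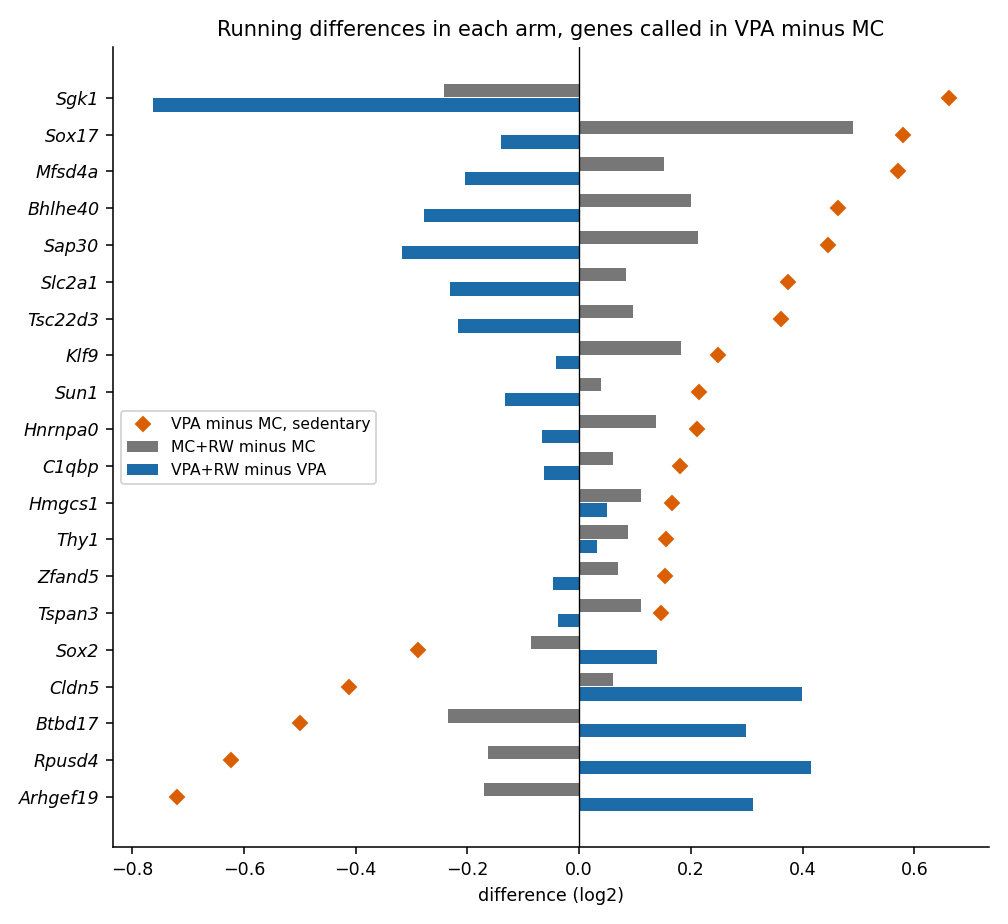
Running difference (log2) in MC offspring (grey bars) and in VPA offspring (blue bars) for 20 of the 21 genes called between VPA and MC, with the sedentary VPA difference as a diamond; Ggt7 is left out for scale. Sgk1 has its larger bar in the VPA arm (-0.76) and Sox17 in the MC arm (0.49).

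The 7 undone genes lower in VPA were dim, with no group mean above 233. Rpusd4 encodes a pseudouridine synthase that acts on mitochondrial RNA. The 250 bases before its start (GRCm38.p6, chr9:35267631-35267880, plus strand) hold 2 copies of CACGTG, the E-box bound by clock and MYC family factors. They are shown in capitals because this is the undone gene with the most matches to that motif.
Rpusd4: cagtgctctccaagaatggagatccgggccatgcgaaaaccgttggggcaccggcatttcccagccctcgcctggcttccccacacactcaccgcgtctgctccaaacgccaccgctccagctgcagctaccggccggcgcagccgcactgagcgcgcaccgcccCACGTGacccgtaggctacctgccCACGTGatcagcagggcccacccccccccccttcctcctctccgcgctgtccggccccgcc
The E-box was in 6.02% of all windows and, among the undone genes, in those of Rpusd4, Oprd1 and Sgk1. Rpusd4 read 208, 256 and 196 in hippocampus MC, 169.5, 188 and 226 in MC+RW, 151, 173 and 176 in VPA and 208, 245 and 165 in VPA+RW. In cortex it read 174, 141 and 149 in MC, 146, 149.5 and 123 in MC+RW, 92, 83.8 and 80.9 in VPA and 112, 130.0 and 131 in VPA+RW. In cortex the VPA arrays were below all others, while in hippocampus the VPA and VPA+RW arrays overlapped. Rpusd4 fell with VPA by 0.62 (limma adjusted p 0.0292), and the interaction was 0.58 (95% interval 0.22 to 0.94) (adjusted p 0.404). The fall was lost under quantile normalization and without any 1 of 8 sedentary arrays, namely hippocampus MC 2 and VPA 1 and all 6 of the cortex.

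Arhgef19, a guanine nucleotide exchange factor gene, read 169, 209.8 and 208 in hippocampus MC, 169, 234 and 164 in MC+RW, 98.7, 136 and 118 in VPA and 129.8, 149 and 164 in VPA+RW. In cortex it read 194, 190.4 and 313, 185, 193 and 182, 152, 122 and 147 and 213, 171 and 136 in the same order. The VPA and VPA+RW arrays overlapped in both tissues. Btbd17 had VPA arrays of 101, 104 and 109.8 in hippocampus and 181, 159.8 and 142 in cortex, against MC arrays of 181, 157 and 131 and 200.3, 209.8 and 239. Its VPA+RW arrays read 125, 139 and 129 and 204, 192 and 185, above all VPA arrays of their tissue. Arhgef19 and Btbd17 fell with VPA by 0.72 and 0.50 (limma adjusted p 0.0246 and 0.0373), and both falls were lost under quantile normalization. That of Arhgef19 was also lost without any 1 of 6 arrays and that of Btbd17 without any 1 of 10. A dimmer tested probe set of Btbd17 gave -0.08 for VPA minus MC and 0.08 for the interaction, against an interaction of 0.53 in the one used. With averaged probe sets the fall of Btbd17 was lost. Npvf, an RFamide neuropeptide precursor gene, and Oprd1, the delta opioid receptor gene, stayed under a mean of 200 in every group, as did 1700027J07Rik and 4933406B17Rik. Their sedentary differences of -0.71, -0.91, -0.53 and -0.95 did not pass.

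Cldn5 and Sox2 fell with VPA without meeting the undone rule. Cldn5 encodes a tight junction protein of brain endothelium. Its VPA arrays read 1066, 1231 and 1057 in hippocampus and 1199, 932 and 1006 in cortex, and its VPA+RW arrays 1381, 1546 and 1155 and 1565, 1600.2 and 1321. The MC arrays read 1412, 1214 and 1368 and 1532, 1521 and 1584, so VPA and MC overlapped in hippocampus. Over both tissues Cldn5 fell with VPA by 0.41 (limma adjusted p 0.0194) and rose with a wheel in VPA offspring by 0.40 (adjusted p 0.0263). Its interaction of 0.34 did not pass, and the rise was lost without any 1 of 8 arrays, and the fall without any 1 of 4. Sox2, a transcription factor of neural stem cells and astrocytes, fell by 0.29 (adjusted p 0.00483) and differed by -0.06 among runners.

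Sox17, Slc2a1 and Cldn5 are expressed in brain vessels, and among 17 tested endothelial and pericyte genes Cldn5 was the 1 that passed between VPA and MC (background 0.149%). The median VPA minus MC of the list was -0.05. The summed signal of its 17 measured members was 11099 to 12588 in hippocampus VPA and 10872 to 11461 in MC, and 10561 to 12028 and 10775 to 11352 in cortex. VPA and MC overlapped in both tissues. In tissue homogenates, fewer cells of a type and less RNA per cell cannot be told apart.

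Ggt7 had the largest interaction of all genes tested. In hippocampus the VPA arrays read 855, 1046 and 1036, the MC arrays 231, 278 and 199, the MC+RW arrays 563, 471 and 149.5 and the VPA+RW arrays 207, 200.5 and 525. In cortex the VPA arrays read 906, 936 and 1014, the MC arrays 219, 149 and 256, the MC+RW arrays 481, 433 and 205 and the VPA+RW arrays 194, 207 and 522. The values fell into 3 separate levels: 12 arrays between 149 and 278, 6 between 433 and 563, and 6 between 855 and 1046. All 6 sedentary VPA arrays were at the highest level and all 6 MC arrays at the lowest. Both running groups were split: in MC+RW replicates 1 and 2 were at the middle level and replicate 3 at the lowest, and in VPA+RW replicate 3 was at the middle level and replicates 1 and 2 at the lowest. In each of the 12 combinations of treatment and number, hippocampus and cortex were at the same level. VPA exceeded MC by 2.14 (limma adjusted p 0.00162), and Ggt7 fell by 1.79 with a wheel in VPA offspring (adjusted p 0.00981). When the tissues were averaged, which leaves 3 values per group, the interaction had an adjusted p of 0.389 and 0 genes passed (limma).

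**Figure D5:**
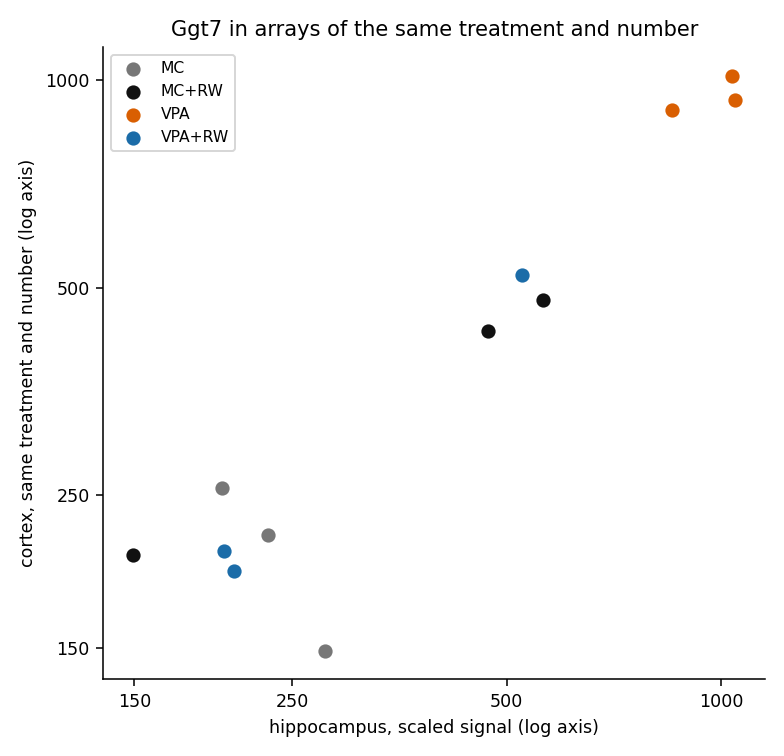
Scaled signal of Ggt7 in hippocampus (horizontal axis) and cortex (vertical axis) for the 12 combinations of treatment and number, both on log axes. The points fall into 3 levels that both tissues share, with the VPA points at the highest.

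The 10 tested genes next to Ggt7 on its chromosome, 5 on each side, had interactions between -0.13 and 0.31. Of these, 1 had an unadjusted p under 0.05 (limma, 8.86% of all genes), Map1lc3a, an autophagy gene. Among the other groups of the series, Ggt7 was between 322 and 722 in the embryonic arrays. At P84 it read 1147, 1130.3, 1086 and 1146 in MC and 1122, 1258, 1098 and 1151 in VPA hippocampus, so that both groups lay above the highest level of the adult set, MC included.

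Among genes with a group mean of at least 200, and apart from Ggt7, the genes with the smallest interaction p-values were led downward by Sox17, Gsk3b and Bhlhe40 and upward by Ccn1, none of which passed over both tissues. Gsk3b in cortex read 3398, 3616 and 3512 in MC, 3984, 4243 and 3704 in MC+RW, 3819, 3911 and 3836 in VPA and 3145, 3063 and 2902 in VPA+RW. The VPA+RW arrays were below all others of the cortex and the MC+RW arrays were all above the MC arrays. In hippocampus the interaction was -0.12, and the difference between tissues had an unadjusted p of 0.00137. Of the 5 other tested probe sets of Gsk3b, 3 had a negative interaction and 2 a positive one. The cortex call was lost with quantile normalization, the values as deposited, no intensity trend or averaged probe sets. No gene passed in cortex without any 1 of 5 cortex arrays, namely MC 1, MC+RW 2, VPA 2, VPA 3 and VPA+RW 3 (limma).

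Ccn1, an immediate-early matricellular gene, read 553, 607 and 374 in cortex MC, 229.9, 157 and 134 in MC+RW, 294, 238 and 217 in VPA and 298, 329 and 169 in VPA+RW. In hippocampus it read 170.0, 277 and 242, 149, 85.9 and 128, 184, 126 and 164 and 155, 185 and 133 in that order. The MC arrays of the cortex were the highest of all. Running lowered it in MC offspring by 1.25 (limma adjusted p 0.00131), against a difference of 0.02 in VPA offspring, and the interaction was 1.27 (95% interval 0.71 to 1.83) (adjusted p 0.198).

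Igfbp7, a secreted insulin-like growth factor binding protein of vessels, fell with running in VPA offspring (-0.49, limma adjusted p 0.0271), with an interaction of -0.60. That fall was lost without any 1 of 6 arrays. Dhrs7, the 1 gene that differed between VPA+RW and MC+RW, read 781, 799.7 and 760.2 in hippocampus VPA+RW against 705, 577 and 598 in MC+RW. In cortex it read 879, 952 and 897 against 749, 740.4 and 649. The VPA+RW arrays were above all others in both tissues, and the difference among runners was 0.34 (adjusted p 0.0095) against 0.05 without a wheel. Whether the 2 differ is the interaction, 0.29, which did not pass (adjusted p 0.327). The call among runners was lost with the values as deposited, averaged probe sets or averaged tissues. Other small p-values that did not pass belonged to Smad1 (-0.31), Setd5 (-0.27), Lgals1 (-0.41) and Mnt (-0.32) downward, and to Mttp (0.44), Cog7 (0.88) and Zc3hav1 (1.14) upward.

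Some running differences were of like size in both arms. Ciart and Dbp, a repressor and an output gene of the circadian clock, fell by 1.18 and 0.98 in MC offspring and by 1.08 and 0.97 in VPA offspring (limma adjusted p 0.00436 and 0.0141, then 0.0263 and 0.0393). The falls in VPA offspring were lost without any 1 of 7 arrays for Ciart and of 11 for Dbp. Their interactions had 95% intervals of -0.51 to 0.71 and -0.58 to 0.59. Nptx2, a synaptic pentraxin gene, rose by 0.66 and 0.53 (adjusted p 0.00334 and 0.0427), the second lost without any 1 of 16 arrays. Of the 16 tested neurotrophic factor and neuropeptide genes, 6 rose with running in MC offspring (background 1.44%) and 1 in VPA offspring (background 0.249%). For the interaction 0 of them passed, with a median of -0.07. Npy, the gene of neuropeptide Y, had a running difference of 0.42 in MC (adjusted p 0.0024) and 0.14 in VPA offspring (adjusted p 0.558). Sst, the somatostatin gene, had 0.20 (adjusted p 0.0127) and 0.02 (adjusted p 0.925).

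Across the 31 gene lists, 0 members passed for the interaction (limma, background 0.00712%), so lists are described by counts and medians. Below 0 lay 46.3% of all genes tested. Of the lists of cell structure and metabolism, the respiratory chain had 18 of 20 members below 0 (median -0.07) and cytosolic ribosomal proteins 9 of 10 (median -0.07). Cholesterol and fatty acid synthesis had 17 of 20 (median -0.09) and synaptic vesicle genes 14 of 15 (median -0.05). In the same order, VPA minus MC was above 0 in 20 of 20, 10 of 10, 20 of 20 and 14 of 15 members, against 6432 of all 14049 genes. Whether the differing shares of probe sets under the floor have a part in this was not tested. Among the 20 synthesis genes 4 had an unadjusted interaction p under 0.05 (limma, 8.86% of all genes), Sqle (-0.19), Fasn (-0.18), Scd2 (-0.17) and Fdft1 (-0.14). Of 15 astrocyte genes 12 were below 0 (median -0.12), with the intermediate filament gene Vim at -0.46, or -0.22 without cortex MC replicate 1. Of 16 clock genes 7 were below 0 (median 0.01), with Bhlhe40 and its paralogue Bhlhe41 at -0.48 and 0.84.

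Clock genes passed in the comparisons that make up the interaction. Between VPA and MC, 1 of 16 rose (background 0.149%), Bhlhe40, and 8 had an unadjusted p under 0.05 (limma, 14.2% of all genes). With running in MC offspring 3 fell (background 1.44%), Per3, Dbp and Ciart. In VPA offspring these 3 and Nr1d2 fell and Arntl, the gene of the core activator BMAL1, rose (background 0.249%). There 12 of 16 had an unadjusted p under 0.05 (limma, 9.37% of all genes). Per3, a period gene, fell in MC offspring by 0.35 and in VPA offspring by 0.33, Nr1d2, a nuclear receptor gene of the clock, fell by 0.40 in VPA offspring, and Arntl rose there by 0.48. Per3 and Nr1d2 were named after their values were seen. In VPA offspring the call was lost without any 1 of 13 arrays for Per3, of 14 for Nr1d2 and of 4 for Arntl.

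Markers of the meninges and of blood were read as well. Of 16 meningeal and collagen matrix genes 15 had a negative interaction, or 14 to 16 without single arrays. Their median was -0.30, and it ran from -0.37, without hippocampus VPA+RW replicate 2, to -0.15, without hippocampus VPA+RW replicate 3. Bgn, Igf2 and Ogn, of the matrix and meninges, had the smallest unadjusted p-values, at -0.40, -0.52 and -0.67. The summed signal of these 16 genes was 15674 to 22971 in hippocampus MC, 18484 to 26288 in MC+RW, 17482 to 19697 in VPA and 14597 to 22673 in VPA+RW. In cortex the same sum was 17341 to 20004, 19725 to 23749, 18976 to 21188 and 19554 to 20499. The 2 tested red blood cell genes, Alas2 and Hba-a1, were dim, with mean signals of 71.1 and 62.4 and arrays below the floor, so their interactions of 1.03 and 1.07 rest on signals near background. The part of these tissues in the interaction was not tested.

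The P84 arrays gave the VPA difference in sedentary hippocampus a second time, with other arrays. There 0 of 14049 genes passed (limma, background 0%, 679 at an unadjusted p under 0.05, and 1 gene under each of 3 alternatives). Of the 21 genes called in the adult set, 15 had the same sign at P84, or 71.4% against 52.2% of all genes tested, and their P84 differences lay between -0.24 and 0.16. Of the 12 undone genes 5 had the same sign. Sgk1 read 1927, 2170.3, 2029.9 and 1547 in MC and 2109.5, 1902, 2267 and 2261 in VPA, an overlap, with a difference of 0.16 (-0.05 to 0.38). This lay below the adult sedentary interval, which is over hippocampus and cortex together and not over hippocampus alone. Sox17 (-0.13) and Mfsd4a (-0.24, unadjusted p 0.00541) had the opposite sign to the adult set, and Bhlhe40 stood at 0.10. For the glucocorticoid list 11 of 15 had the same sign as in the adult set, with a median VPA minus MC of 0.11. Nfkbia (0.13) and Tsc22d3 (0.13) lay above 0 and Klf9 (-0.02) did not, and no P84 difference of the list passed.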

How the data were processed

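The data were the deposited series matrix of Affymetrix Mouse 430 2.0 arrays, made with GCOS per the submitters' processing notes. The deposited values are intensities on a linear scale, 1 per probe set and array, and the RNA was total RNA per the labels' protocols. Of 45101 probe sets, 34958 have 1 gene symbol in the platform annotation, 932 several and 9211 none. Arrays were multiplied to a common trimmed mean (2% off each end) of 500, given a floor of 32 and taken to log2. The probe set with the highest mean over the 24 arrays stood for a gene, and genes at 100 or more in at least 3 arrays were tested. Models were fitted with limma 3.58.1 (lmFit, eBayes with an intensity trend; R 4.3.3) with 4 treatment terms and a tissue term, and with 8 groups for single tissues. P-values were adjusted by Benjamini-Hochberg over all 14049 genes. The 8 P84 arrays were scaled likewise and fitted alone. The scripts were tested on simulated data. Genes were named from the undone rule, the called genes, the smallest interaction p-values among genes reaching a group mean of 200, and the 31 lists. The members and lists were chosen with earlier results of these data known. The number of arrays limits the precision. Numbers shared by arrays were not treated as pairs. Over genes, 1 of 12 hippocampus and cortex pairs correlated above 0.1 in their deviations from the group means. That does not settle whether 1 number was 1 mouse. For immediate early genes the median correlation over the 12 pairs was 0.69, and in Ggt7 all 12 pairs shared a level.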

Additional observations from a re-analysis of the deposited data

Results flagged for a closer look

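In the P84 hippocampus arrays, which have 4 arrays per group, 64 named genes gave 128 groups of values (MC and VPA). In 8 of the 128, 1 array stood apart from the other 3 by Dixon's criterion, which sets a gap against the range of the values. A small gap can therefore meet it where the other 3 lie close together. Chance meets it in about 1 in 20 groups, and 8 of 128 is near that share. Ttr, of choroid plexus, read 14621, 831, 404 and 1493 in MC and 1264, 1964, 794 and 16112 in VPA, so that 1 array of each group stood apart. Btbd17 read 142, 144, 104 and 144 in MC and 121, 119.5, 122 and 139 in VPA. Sox2 read 2083, 1981, 2089 and 2076 in VPA, and Fdft1, of sterol synthesis, 1382, 1382, 1310.5 and 1371. Ccn1 read 193, 232, 188 and 193 in MC, and Alas2, of haem synthesis in red blood cells, 61.4, 21.2, 67.8 and 68.9. The adult groups have 3 arrays each and were not examined in this way.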

How the results depend on the processing

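Counts of called genes (limma, adjusted p under 0.05) moved with the processing, and unless a construction is named the cause was not tested. The interaction over both tissues (1 gene) gave 0 with 8 groups, every probe set, the mean over probe sets, no filter, no intensity trend or the mean of hippocampus and cortex, and 0 to 2 without single arrays. In cortex (1) it gave 0 with quantile normalization, the values as deposited, no trend or the mean over probe sets, and 0 to 2 without single arrays. In hippocampus (0) it gave 1 with no filter and 0 to 1 without single arrays, and the difference between tissues 0 to 1. VPA minus MC (21) gave 1 as deposited, 48 with no filter, 33 with a filter at 200, 43 with the mean over probe sets (22 higher, 21 lower), 0 with the mean of tissues and 32 with 8 groups, and 8 to 45 without single arrays. VPA+RW minus MC+RW (1) gave 4 with quantile normalization (1 higher, 3 lower), 0 as deposited, with the mean over probe sets or with the mean of tissues, 2 with 8 groups, and 1 to 4 without single arrays. MC+RW minus MC (202) gave 66 with quantile normalization, 6 as deposited, 107 with no trend, 33 with the mean of tissues, 190 with the mean over probe sets (85 higher, 105 lower), and 54 to 295 without single arrays. VPA+RW minus VPA (35) gave 4 as deposited, 17 with no filter, 19 with no trend, 7 with the mean of tissues, and 4 to 51 without single arrays. P84 (0) gave 1 as deposited, with no filter or with no trend, and 0 to 2 without single arrays. The undone rule (12) gave 7 with quantile normalization, 7 with a runner difference of at most 0.25 times the sedentary one, 24 at 1.2-fold, 5 at 1.5-fold and 45 without the overlap requirement, the last 4 by their own construction, and 9 to 28 without single arrays. The trend and the blocks do not enter that rule.

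With the replicate number as a block, the interaction gave 0, VPA minus MC 15, VPA+RW minus MC+RW 2, MC+RW minus MC 190 and VPA+RW minus VPA 26. Over all genes, deviations of same-numbered arrays from their group means correlated at -0.15 to 0.30 between tissues and at -0.26 to 0.16 between treatments. Most genes vary little within a group, so these correlations cannot decide whether hippocampus and cortex of 1 number were 1 mouse. For immediate early genes the median correlation between tissues was 0.69. The main fits did not take the numbers as pairs because the labels do not say what they mean.

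Of single interactions, those of Hmgcs1 (0.078), Tsc22d3 (0.070), Setd5 (0.015), Nptx2 (0.048), Zfand5 (0.14), Mt1 (0.18) and Dbp (-0.062) changed sign with the mean over probe sets. With quantile normalization those of Hmgcs1 (0.020), Thy1 (0.029), Per3 (-0.012) and Ciart (-0.055) did, with the values as deposited that of Thy1 (0.0029), and with no floor that of Ciart (-0.023). Without single arrays Dbp ran from -0.18 to 0.16, Per3 from -0.036 to 0.063 and Ciart from -0.077 to 0.19. Of 2356 combinations of a named gene and a setting, 2297 kept direction and side of the threshold. The median interaction of all genes was 0.01 and moved by at most 0.05, with the values as deposited. Probe sets near the floor carry little signal over background, which limits the dim undone genes.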

Other observations

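Immediate early genes, which respond within minutes to neuronal activity, were not among the genes that passed for the interaction. They varied together between the tissues of a number within a group. Over the 12 combinations of treatment and number, the deviation from the group mean in hippocampus was set against that in cortex, as a description with no test. The median correlation was 0.69 over 22 immediate early genes, with 20 of 22 above 0, against 0.03 over 14047 genes with a value. It was 0.97 for Arc and 0.94 for Fos, and 0.83 for Ggt7. The labels do not say whether arrays of 1 number came from 1 mouse.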
